A study of Mus musculus with 12 samples.

Results

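The effect of an acetate-enriched diet was examined in the dorsal hippocampus of mice that had received a sham injection of phosphate-buffered saline (PBS) in place of tau. The comparison was defined by the sample labels and was chosen with earlier results of these data known. It took 6 of the 12 mice of the series. They were the 3 PBS-injected mice on the acetate diet (acetate mice) and the 3 PBS-injected mice on the control diet (control mice). All 6 were wild-type C57Bl6/J mice injected unilaterally, into the right dorsal hippocampus, at 6 months of age. The acetate diet was LabDiet 5001 containing 5% sodium acetate. The control diet is labelled standard chow from TestDiet and is described in the methods of the study as calorically equivalent, and it remained unstated here whether the sodium content was matched. Mice were kept on either diet for 6 months after the injection, and the injected side was dissected from 1-mm slices 24 h after a remote recall test of contextual fear memory. The other 6 mice received 1 µg of tau purified from human Alzheimer's disease brain and had the same 2 diets, 3 mice each (tau control and tau acetate mice), so that both diet effects share no animals. The question was what acetate feeding did to hippocampal transcription in mice without tau seeding.

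Acetate is converted to acetyl-CoA by acetyl-CoA synthetases, among them ACSS2, which is found in the nucleus of neurons and feeds histone acetylation, a mark of active chromatin. The same acetyl-CoA serves fatty acid and cholesterol synthesis. The dorsal hippocampus holds the pyramidal neurons of CA1, CA2 and CA3, the granule cells of the dentate gyrus, interneurons, glia and vessels. It borders the ventricle with its ependyma and choroid plexus, white matter tracts and the thalamus, so that a dissected slice can carry variable amounts of each.

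Total gene counts of the 6 mice ranged from 12983233 to 19205843, and levels are given as CPM, counts scaled to the TMM-normalized library size. Summed levels of all marker lists for hippocampal neurons, glia and vessels were above 0 in every mouse. So were those for striatum, neocortical layers and thalamus, so that detection of these lists cannot check the dissected region. Hemoglobin genes Hbb-bs, Hbb-bt, Hba-a1 and Hba-a2 were listed at 0 in the 6 mice. The mice are labelled male, whereas Xist, the RNA that coats the inactive X chromosome, was counted at 919.8 to 1340 CPM in the 6 libraries and 8 Y-linked genes had none, so the labelled sex does not match the libraries of either diet. In a bulk sample, fewer cells of a type and less RNA per cell cannot be told apart. Several marker sums differed between the diets without overlap. Markers of CA1 pyramidal neurons summed to 661, 574 and 507 CPM in the control mice and 935, 1051 and 789.9 CPM in the acetate mice, and those of CA3 pyramidal neurons to 685, 599 and 667 CPM and 363, 329 and 495 CPM. Markers of ependymal cells, choroid plexus and myelinating oligodendrocytes were also lower in each acetate mouse than in each control mouse, as described further on. These sums stand beside every gene group given here, and apart from the covariate fit of CA1 and CA3 markers their part in the results was not tested.

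The diet difference was broad and mostly shallow. Of 14742 genes tested, 588 (3.99%) were higher and 715 (4.85%) lower in acetate mice, 1303 (8.84%) in all, at a Benjamini-Hochberg adjusted p below 0.1 in edgeR's quasi-likelihood test. Changes are given as log2 fold changes throughout. The median size of change was 0.34 among those higher and 0.30 among those lower. More than a 2-fold change was seen in 35 higher and 84 lower genes. Acetate mice lay entirely above control mice in 1934 genes (13.1%) and entirely below in 1942 genes (13.2%), so that the diets did not overlap in 3876 genes (26.3%). Among the called genes they did not overlap in 557 of the 588 higher and 677 of the 715 lower ones. Separation in a called gene thus follows largely from its choice in the same mice and adds no support. Averaged over the higher genes, acetate mice 1, 2 and 3 lay 0.48, 0.50 and 0.37 above the control mean on the log2 scale. Averaged over the lower genes, they lay at -0.47, -0.51 and -0.38. Of the 3 acetate mice, mouse 3 lay closest to the controls. In these genes, chosen on the PBS-injected mice, tau-injected mice of either diet lay between the 2 PBS groups, at 0.17 to 0.33 for the higher and -0.29 to -0.14 for the lower genes.

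The number of called genes depended on single mice. It was 15 without acetate mouse 2, 248 without control mouse 3, 315 without acetate mouse 1 and 727 without control mouse 1. Sizes of change moved less. Over the 1303 genes, which were chosen with all mice, the median size was 0.32 with all mice and 0.30 without acetate mouse 2. All of them kept their sign there. In that fit 2086 genes had an unadjusted p below 0.05, against 3062 with all mice. With a score of CA1 minus CA3 markers as a covariate, edgeR called 0 genes, and 720 had an unadjusted p below 0.05. That score was -0.56, -0.73 and -0.92 in control mice and 0.71, 1.00 and 0.11 in acetate mice, so that subfield markers and diet cannot be told apart in this fit. The median size of the change over the 1303 genes was 0.32 without the covariate and 0.18 with it. The sign turned in 18 of the genes named with values, namely Adora1, Aldoc, Atp2b1, Cacna1a, Dhcr7, Fgf13, Fgfr1, Fibcd1, Gpr101, Grik4, Mpped1, Ndnf, Otos, Rxfp1, Scg3, Slc17a7, Stim2 and Trpc4.

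**Figure D1:**
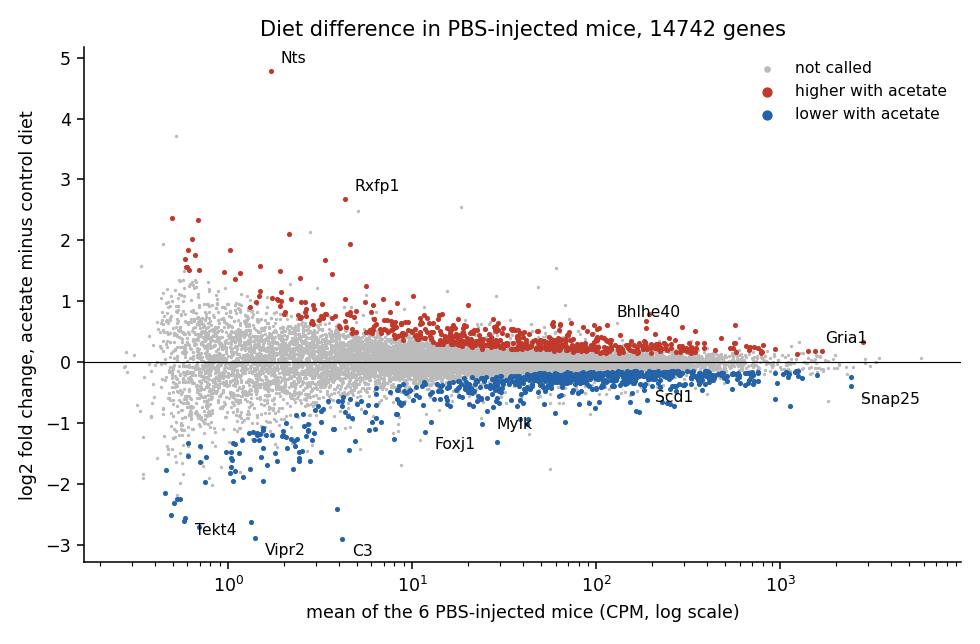
Log2 fold change of acetate minus control diet against the mean level in the 6 PBS-injected mice (CPM, log axis), 1 point per gene. Red points are the 588 genes higher and blue points the 715 genes lower with acetate at an adjusted p below 0.1, and most of them lie within 1 log2 unit of 0.

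The genes with the smallest p encode transcriptional regulators, kinases and membrane proteins. Bhlhe40 (chr6:108660629-108666925 on GRCm38), a basic helix-loop-helix repressor of clock genes, had 86.7, 94.5 and 89.7 CPM in the control mice and 145, 145 and 122 CPM in the acetate mice. The groups were well apart, and the difference was called in all 12 fits that left out 1 mouse of the series (log2 fold change 0.61 ± 0.08 (SE), adjusted p = 0.00448). The potassium channel subunit gene Kcnh3 (chr15:99224861-99242817) rose from 87.2, 93.4 and 90.1 to 119, 124 and 118 CPM (log2 fold change 0.42 ± 0.06 (SE), adjusted p = 0.00448). Ccdc88c, which encodes a Dishevelled-binding protein, rose from 52.4, 45.3 and 41.8 to 71.6, 77.4 and 62.1 CPM (log2 fold change 0.60 ± 0.09 (SE), adjusted p = 0.00448). Pak6, a p21-activated kinase, Icam5, the dendritic adhesion molecule telencephalin, Car11, a carbonic anhydrase-related protein, and Ltk, a receptor tyrosine kinase, also rose, with log2 fold changes of 0.53, 0.32, 0.37 and 0.79. Among the lower genes, Mylk (chr16:34745210-35002420), the myosin light chain kinase, had 30.9, 30.0 and 35.8 CPM in the control mice and 18.2, 17.0 and 20.1 CPM in the acetate mice (log2 fold change -0.81 ± 0.11 (SE), adjusted p = 0.00448). Chst11, a sulfotransferase of chondroitin sulfate chains, fell from 119, 107 and 118 to 80.0, 80.9 and 91.5 CPM (log2 fold change -0.45 ± 0.07 (SE), adjusted p = 0.00567). Retreg1, a receptor for autophagy of the endoplasmic reticulum, fell from 53.8, 57.5 and 57.7 to 42.0, 39.9 and 38.8 CPM (log2 fold change -0.49 ± 0.07 (SE), adjusted p = 0.00567). In each of these genes the 3 acetate mice lay on 1 side of the 3 control mice, as in most called genes. Zfp367, Fstl5, Scd1, Pdia4 and Il6st completed the lower genes of smallest p, with log2 fold changes of -0.58, -0.67, -0.37, -0.45 and -0.33.

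The largest changes belonged to genes of low level. Nts, the precursor of the neuropeptide neurotensin, had 2, 1 and 2 reads in the control mice and 96, 55 and 13 reads in the acetate mice, a ratio of 29.1 at equal depth (exact 95% interval 12.2 to 90.9, counting error only; edgeR adjusted p = 0.0472). A fitted fold change of a gene with so few control reads depends on the prior count and is not given. Rxfp1, the relaxin receptor, rose from 1.51, 1.16 and 0.745 to 12.3, 7.43 and 2.62 CPM (log2 fold change 2.69 ± 0.69 (SE), adjusted p = 0.0644), and Gpr101, an orphan G protein-coupled receptor, from 2.27, 1.31 and 2.03 to 10.8, 8.35 and 2.68 CPM (log2 fold change 1.94 ± 0.58 (SE), adjusted p = 0.0962). In all 3 genes acetate mouse 3 was the lowest of its group. Nanos2, an RNA-binding regulator of translation, rose by 1.83. Sec1 and Ntn5, at 2.11 and 1.68, overlap each other on opposite strands of chromosome 7, and reads were counted by strand. On the lower side, complement C3 had 9.95, 5.17 and 6.77 CPM in the control mice and 1.49, 0.619 and 0.894 CPM in the acetate mice (log2 fold change -2.90 ± 0.53 (SE), adjusted p = 0.0236). The chemokine gene Cxcl5 had 2.27, 3.17 and 1.35 CPM in the control mice and 0.517, 0.206 and 0.383 CPM in the acetate mice (log2 fold change -2.62 ± 0.58 (SE), adjusted p = 0.0278). Vipr2, the VIP receptor 2, and Tnnt1, a troponin T, fell (-2.88 and -2.42), and in both the control group was led by control mouse 2. Vipr2 had 0.815, 4.94 and 1.63 CPM in the control mice and 0.194, 0.361 and 0.383 CPM in the acetate mice, and Tnnt1 had 1.40, 13.9 and 4.40 CPM in the control mice and 1.10, 1.03 and 1.47 CPM in the acetate mice, where the groups overlapped. Otos, which encodes otospiralin, fell by 1.96. Without acetate mouse 2 none of these 11 genes passed, with adjusted p from 0.148 to 0.288.

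To describe what the called genes do, 91 lists of genes were counted. Of 3724 genes in any of the lists 11.4% were called, and 879 of the 1303 called genes were in no list. Members of 79 lists were called, and without acetate mouse 2 members of 10 lists were. The count of called members changed by more than 1.5 times in all 79 lists without acetate mouse 2, in 75 without acetate mouse 1, in 75 without control mouse 3 and in 46 without control mouse 1. The other 8 mice had that effect on 5 to 26 lists each. Shares are given beside 3.99% higher and 4.85% lower over all genes, whose median log2 fold change was 0.0042. The plot of list shares shows that the called members were mostly higher among clock, astrocyte and postsynaptic scaffold genes, and mostly lower among ependymal, myelin, cilia, fatty acid synthesis, chaperone, tubulin and vesicle genes. In each of these lists but the ependymal one, most members did not pass.

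**Figure D2:**
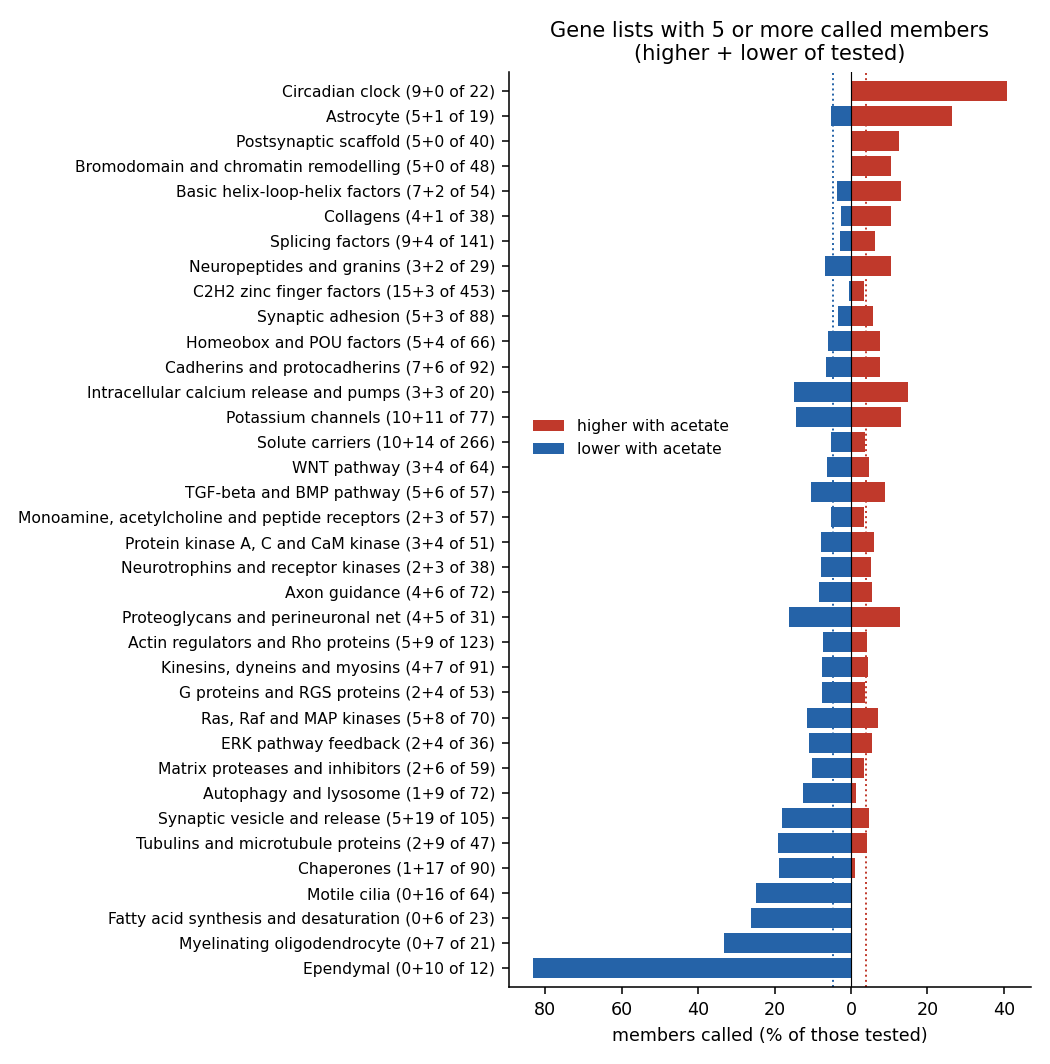
Share of tested members called higher (red, to the right) and lower (blue, to the left) with acetate in the lists with 5 or more called members, in percent. Dotted lines mark the shares over all genes, 3.99% higher and 4.85% lower, and the numbers in brackets give members higher plus lower of those tested.

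Among transcription factors, the circadian clock had the highest share of higher members. Of 22 clock genes tested, 9 were higher (40.9%) and 0 lower, with a median log2 fold change of 0.15 over the list. In the core clock, the factors CLOCK, NPAS2 and BMAL1 drive genes through E-box motifs, and the products of Per, Cry, Ciart, Bhlhe40 and Bhlhe41 repress that drive, while Nr1d1 encodes a nuclear receptor that represses Bmal1. Per1 (chr11:69095217-69109960), which also responds to glucocorticoids and neuronal activity, had 76.6, 64.6 and 61.1 CPM in the control mice and 108, 103 and 91.6 CPM in the acetate mice (log2 fold change 0.58 ± 0.08 (SE), adjusted p = 0.00448). Npas2 (chr1:39193731-39363236) had 16.7, 16.2 and 12.5 CPM in the control mice and 23.8, 24.8 and 20.5 CPM in the acetate mice (log2 fold change 0.60 ± 0.12 (SE), adjusted p = 0.0157). Ciart (chr3:95878503-95882251), a circadian repressor, had 5.59, 5.64 and 5.21 CPM in the control mice and 10.9, 9.75 and 8.50 CPM in the acetate mice (log2 fold change 0.82 ± 0.18 (SE), adjusted p = 0.0251). No acetate mouse overlapped a control mouse in these 3 genes. Nr1d1, the target and repressor of the same loop, had 76.9, 79.7 and 63.9 CPM in the control mice and 96.0, 114 and 106 CPM in the acetate mice (log2 fold change 0.52 ± 0.13 (SE), adjusted p = 0.0508). Dbp, Per2, Bhlhe41 and Cry2 were the other higher members. The time of day of tissue collection is not given per mouse. Higher clock genes numbered 2 without acetate mouse 2, 4 without control mouse 3 and 5 without acetate mouse 1.

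The motif CACGTG, the canonical E-box, which reads the same on both strands, was searched in the promoter windows of RefSeq on GRCm38.p6, 250 bases before to 50 after each start. The 9 higher clock genes had 8 windows of 7 genes in the table, and 3 of the 8 windows held the motif, against 1401 of 14713 windows of tested genes (9.52%) and 6 of 27 windows of the whole clock list. These 3 windows are shown because their genes moved together, with the motif in capitals. The motif began 166 bases before the start in Per1, 116, 58 and 44 bases before it in Ciart, and 153 bases before it in Bhlhe41. A match is a run of letters and was not tested for binding, and over all called genes the share was 8.64% among higher and 9.33% among lower genes, close to the share of all windows.
Per1 (chr11:69098699-69098998, plus strand): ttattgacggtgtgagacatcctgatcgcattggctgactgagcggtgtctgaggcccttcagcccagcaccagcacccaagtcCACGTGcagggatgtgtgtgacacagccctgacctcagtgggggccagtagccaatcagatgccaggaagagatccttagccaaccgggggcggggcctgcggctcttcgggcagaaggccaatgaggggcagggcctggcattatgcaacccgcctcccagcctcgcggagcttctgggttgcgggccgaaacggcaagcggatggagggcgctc
Ciart (chr3:95882179-95882478, minus strand): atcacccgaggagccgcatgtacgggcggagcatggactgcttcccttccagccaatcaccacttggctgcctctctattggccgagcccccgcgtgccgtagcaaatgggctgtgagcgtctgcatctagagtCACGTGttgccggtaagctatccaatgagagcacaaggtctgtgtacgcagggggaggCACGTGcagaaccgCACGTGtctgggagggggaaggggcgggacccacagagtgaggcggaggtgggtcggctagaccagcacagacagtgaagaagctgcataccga
Bhlhe41 (chr6:145865371-145865670, minus strand): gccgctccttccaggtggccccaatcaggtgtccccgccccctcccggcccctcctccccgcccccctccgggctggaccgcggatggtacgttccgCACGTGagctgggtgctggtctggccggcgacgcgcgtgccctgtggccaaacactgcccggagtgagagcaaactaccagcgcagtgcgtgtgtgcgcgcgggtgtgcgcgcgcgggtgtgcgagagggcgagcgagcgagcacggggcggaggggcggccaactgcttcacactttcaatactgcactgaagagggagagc

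**Figure D3:**
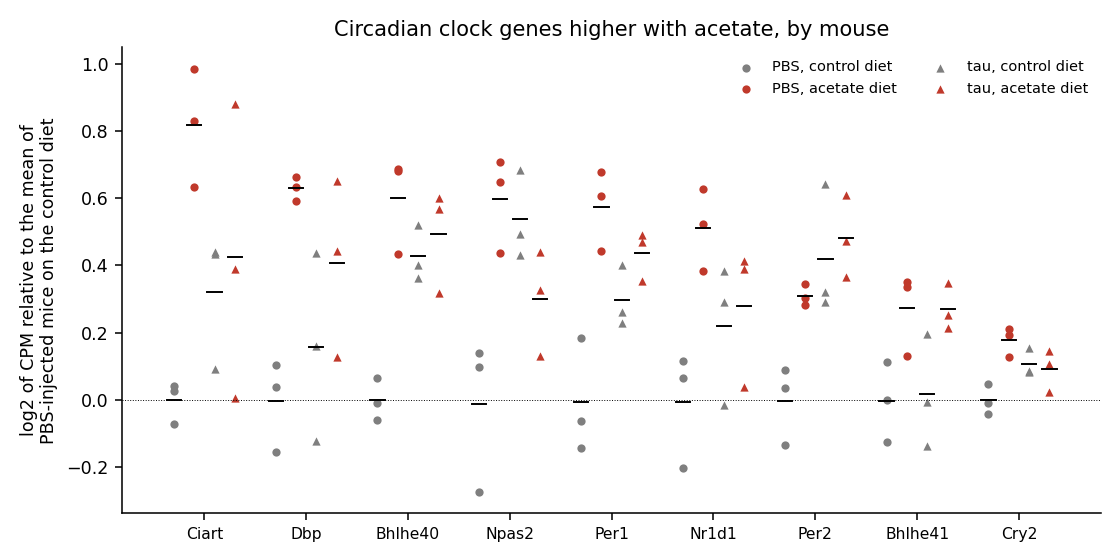
Log2 of CPM relative to the mean of PBS-injected mice on the control diet for the 9 clock genes called higher, 1 symbol per mouse (circles PBS-injected, triangles tau-injected, grey control diet, red acetate diet), with group means of the log2 values as bars. The red circles lie above the grey circles in each of the 9 genes, and the triangles of both diets lie mostly between or beside them.

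The other families of transcription factors had smaller shares. Of 54 basic helix-loop-helix factors, 7 were higher and 2 lower. Beside the clock factors Bhlhe40, Bhlhe41 and Npas2, the higher members were Npas1, an interneuron factor (0.45, adjusted p = 0.0433), Arnt2, Hes6 and Usf1. The lower members were Neurod6, a factor of pyramidal neurons, which fell from 352, 306 and 343 to 253, 246 and 274 CPM (log2 fold change -0.37 ± 0.07 (SE), adjusted p = 0.0195), and Mycn. Among 453 C2H2 zinc finger factors, 15 were higher and 3 lower, shares of 3.31% and 0.662%, both below those of all genes. The higher ones included Zkscan16 (0.35, adjusted p = 0.0195), Zbtb48, a telomere-binding factor (0.48, adjusted p = 0.0344), and Bcl6, a repressor (0.38, adjusted p = 0.0383). Homeobox and POU factors were called in both directions, 5 of 66 higher and 4 lower. Pou3f1, a marker of CA1 here, rose by 0.61, Pou6f1 by 0.28 and the cofactor Lmo1 by 0.29, and Otx2, a choroid plexus and forebrain factor, fell by 1.81. Atf6, a sensor of unfolded protein in the endoplasmic reticulum, was the 1 called member of 36 CREB, ATF, CEBP and MAF factors and fell from 137, 143 and 140.3 to 110.3, 120.3 and 123 CPM (log2 fold change -0.25 ± 0.05 (SE), adjusted p = 0.0207). Klf15 and Klf16 rose by 0.31 and 0.27, Klf6 fell by 0.25, and the ETS repressor Erf rose by 0.29. Of 32 STAT, IRF, NF-kB, NFAT and SMAD factors, edgeR called 0, with 1 higher and 3 lower at an unadjusted p below 0.05, and DESeq2 called 0. SOX and FOX factors had 2 of 38 higher, Foxp4 and Foxk1 (0.22 and 0.18), and 2 lower, the neural factor gene Sox1 (-0.41, adjusted p = 0.0411) and Foxj1. The counts of higher members were 0 without control mouse 3, acetate mouse 1 or acetate mouse 2, 2 without control mouse 1 or control mouse 2 and 8 without tau acetate mouse 1 for the homeobox and POU factors, 1 without acetate mouse 2, 2 without acetate mouse 1 and 3 without control mouse 2 or control mouse 3 for the basic helix-loop-helix factors and 0 without acetate mouse 2 and 2 without control mouse 3 or acetate mouse 1 for the zinc fingers.

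Immediate early genes were called at a share of 6.67%, against 8.84% of all genes. Of 30 immediate early genes, 1 was higher (Per1) and 1 lower, Ptgs2, the cyclooxygenase 2 gene, which had 59.2, 47.3 and 60.2 CPM in the control mice and 27.3, 23.2 and 37.0 CPM in the acetate mice (log2 fold change -0.94 ± 0.19 (SE), adjusted p = 0.0355). Npas4, an activity-dependent factor, had 14.6, 13.2 and 13.7 CPM in the control mice and 13.05, 10.2 and 7.22 CPM in the acetate mice (log2 fold change -0.45 ± 0.37 (SE), adjusted p = 0.540). Each acetate mouse was below each control mouse, but the difference did not pass. Among 29 genes responsive to glucocorticoids or FoxO factors, 4 were higher and 0 lower, namely Per1, Ddit4, Bcl6 and Klf15. Ddit4, an inhibitor of mTORC1, had 53.8, 48.6 and 55.9 CPM in the control mice and 71.8, 66.1 and 64.7 CPM in the acetate mice (log2 fold change 0.35 ± 0.07 (SE), adjusted p = 0.0191). The count was 1 without acetate mouse 2 and 2 without control mouse 3 or acetate mouse 1. In the Notch pathway, 4 of 28 genes were higher and 0 lower, namely the receptor Notch3 (0.39, adjusted p = 0.0880), its ligand Jag1 (0.40, adjusted p = 0.0893), the E3 ligase Dtx4 (0.31, adjusted p = 0.0457) and Hes6 (0.43, adjusted p = 0.0961). The Notch count was 0 without control mouse 1, control mouse 3, acetate mouse 1 or acetate mouse 2.

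Of 268 genes of chromatin and splicing, 16 were higher and 5 lower, 7.84% in all against 8.84% of all genes. Among 32 lysine acetyltransferases and deacetylases, 1 was higher, Kat6b, the acetyltransferase MORF, with 69.8, 78.0 and 67.8 CPM in the control mice and 85.0, 89.8 and 79.8 CPM in the acetate mice (log2 fold change 0.24 ± 0.07 (SE), adjusted p = 0.0574). Among 48 bromodomain and remodelling genes, 5 were higher (10.4%, against 3.99% of all genes) and 0 lower. They included Brd9, a bromodomain subunit of BAF complexes, which rose from 125, 93.2 and 98.4 to 143, 137 and 127 CPM (log2 fold change 0.36 ± 0.08 (SE), adjusted p = 0.0357), Chd3 (0.21, adjusted p = 0.0469), Arid5b (0.35, adjusted p = 0.0736) and Smarcd1 (0.15, adjusted p = 0.0763). Their count was 0 without control mouse 3, acetate mouse 1 or acetate mouse 2 and 1 without control mouse 1. Of 47 lysine methyltransferases and demethylases, Kmt2b rose by 0.28 and Setd7 fell by 0.29. Splicing factors had 9 of 141 higher and 4 lower, led by Rbm33 on the higher side (0.36, adjusted p = 0.0219) and by the neuronal regulators Celf4 (-0.27, adjusted p = 0.0195) and Elavl2 (-0.68, adjusted p = 0.0251) and the nuclear ribonucleoprotein Hnrnpc (-0.21, adjusted p = 0.0390) on the lower side. Higher splicing factors numbered 0 without acetate mouse 2, 1 without control mouse 3, 3 without acetate mouse 1, 5 without acetate mouse 3 and 14 without tau acetate mouse 1.

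Ion channels changed in both directions. Of 77 potassium channel genes tested, 10 were higher and 11 lower (14.3%), with a median of 0.04. The higher members were led by Kcnh3, which encodes a voltage-gated subunit of the ether-a-go-go family, and the lower ones by subunits of fast-spiking and axonal channels. Kcnc2, a Kv3 subunit of fast-spiking interneurons (chr10:112271121-112467024), had 129.6, 128 and 114 CPM in the control mice and 96.7, 87.1 and 99.3 CPM in the acetate mice (log2 fold change -0.39 ± 0.07 (SE), adjusted p = 0.0146). Kcna1, a Kv1 subunit of axons (chr6:126640397-126646384), had 350.3, 321 and 349 CPM in the control mice and 255, 255 and 284 CPM in the acetate mice (log2 fold change -0.36 ± 0.07 (SE), adjusted p = 0.0164). Kcnv1, a silent modulatory subunit, had 68.1, 60.9 and 65.2 CPM in the control mice and 45.8, 43.9 and 55.8 CPM in the acetate mice (log2 fold change -0.42 ± 0.09 (SE), adjusted p = 0.0195). In these 3 genes each acetate mouse was below each control mouse. Higher potassium channels numbered 1 without acetate mouse 1 or acetate mouse 2 and 2 without control mouse 1 or control mouse 3, and lower ones 0 without acetate mouse 2, 5 without control mouse 3, 6 without acetate mouse 1 and 7 without control mouse 2.

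Calcium and sodium handling showed the same mixture. The T-type channel gene Cacna1i rose by 0.38 (adjusted p = 0.0450), whereas the P/Q-type gene Cacna1a and the L-type gene Cacna1c fell (-0.27 and -0.26). Of 20 genes of calcium release and pumps, 3 were higher and 3 lower. The plasma membrane pump genes Atp2b1 and Atp2b2 went in opposite directions (0.19, adjusted p = 0.0688 and -0.19, adjusted p = 0.0736), the endoplasmic pump gene Atp2a2 had -0.16 and the calcium sensor gene Stim2 -0.22. The sodium channel subunit gene Scn3b rose by 0.23, Trpc4 by 0.32 and the chloride channel gene Clcn2 by 0.34, and Ano3 fell by 0.20. The sodium pump subunit gene Atp1b3 fell by 0.22. None of these calls of calcium, sodium, TRP and chloride channel genes held without acetate mouse 2. Transporters of the solute carrier family had 10 of 266 higher (3.76%) and 14 lower (5.26%), close to the shares of all genes. Slc5a3, the myo-inositol transporter gene, had 32.7, 33.9 and 36.0 CPM in the control mice and 24.2, 25.3 and 26.3 CPM in the acetate mice (log2 fold change -0.44 ± 0.08 (SE), adjusted p = 0.0138), Slc38a2, a neutral amino acid transporter gene, fell by 0.40, and Slc26a8, an anion exchanger gene, rose by 0.84. Higher carriers numbered 0 without control mouse 3 or acetate mouse 1 and 1 without acetate mouse 2, and lower ones 0 without acetate mouse 2, 3 without acetate mouse 1, 4 without control mouse 3, 5 without control mouse 1 and 9 without control mouse 2.

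Glutamate receptor genes were called in both directions. Of AMPA receptor and auxiliary genes, 3 of 17 were higher and 1 lower. The main subunits Gria1 (chr11:57011387-57330244) and Gria2 (chr3:80681450-80802835) both rose. Gria1 had 1479, 1411 and 1438 CPM in the control mice and 1647, 1693 and 1593 CPM in the acetate mice (log2 fold change 0.19 ± 0.05 (SE), adjusted p = 0.0344), and Gria2 had 1175, 1173 and 1183 CPM in the control mice and 1309, 1303 and 1275 CPM in the acetate mice (log2 fold change 0.14 ± 0.04 (SE), adjusted p = 0.0751). The auxiliary subunit gene Shisa7 rose by 0.24 and Cacng2, which encodes stargazin, fell by 0.28. Of 15 NMDA, kainate and delta receptor genes, 0 were called higher and 2 lower. These 2 were the kainate subunit gene Grik4, itself a CA3 marker here (-0.54, adjusted p = 0.0736), and the auxiliary gene Neto2 (-0.33, adjusted p = 0.0437). The list as a whole leaned the other way, with a median of 0.13 and 10 changes above 0 and 5 below. At an unadjusted p below 0.05 in edgeR, 5 members were higher and 3 lower. Their summed level was 3133, 3067 and 2966 CPM in the control mice and 3158, 3285 and 3152 CPM in the acetate mice, without overlap. Among metabotropic receptors, Grm5 rose by 0.17 (adjusted p = 0.0767), and Grm7 fell by 0.22. The GABA type A receptor gene Gabrg1 rose by 0.31, and the type B gene Gabbr2 fell by 0.21. Of 57 receptors for monoamines, acetylcholine and peptides, 2 were higher and 3 lower, shares below or close to those of all genes. Adora1, the adenosine A1 receptor gene, had 418, 381 and 402 CPM in the control mice and 309.8, 299.7 and 355 CPM in the acetate mice (log2 fold change -0.32 ± 0.07 (SE), adjusted p = 0.0268), and Htr7 and Cckbr, receptors for serotonin and cholecystokinin, fell (-0.85 and -0.65), while the dopamine receptor gene Drd5 rose by 0.37. Higher AMPA genes numbered 0 without control mouse 3 or acetate mouse 2.

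Called genes of the presynaptic terminal were mostly lower. Of 105 genes of synaptic vesicles and release, 19 (18.1%) were lower and 5 higher, with a median of -0.06. Snap25 (chr2:136713453-136782428), a SNARE protein gene of vesicle fusion, had 2775, 2544 and 2929 CPM in the control mice and 2038, 1866 and 2341 CPM in the acetate mice (log2 fold change -0.40 ± 0.08 (SE), adjusted p = 0.0157). Snap91, a clathrin adaptor gene, had 489, 431 and 489.9 CPM in the control mice and 364, 361 and 423 CPM in the acetate mice (log2 fold change -0.30 ± 0.07 (SE), adjusted p = 0.0256), and the synaptophysin-like gene Sypl had 60.3, 54.2 and 60.6 CPM in the control mice and 49.7, 47.0 and 45.0 CPM in the acetate mice (log2 fold change -0.31 ± 0.07 (SE), adjusted p = 0.0251). Bsn, Pclo, Rims1, Erc1 and Erc2 of the active zone and the synapsin genes Syn1 and Syn2 were among the other lower members. Syt16, a synaptotagmin gene, rose from 59.7, 60.6 and 56.7 to 79.5, 86.6 and 74.5 CPM (log2 fold change 0.44 ± 0.09 (SE), adjusted p = 0.0192). The count of lower members was 0 without acetate mouse 2, 4 without acetate mouse 1, 6 without control mouse 3 and 7 without control mouse 1. Of 7 markers of excitatory neurons, 3 were called lower, including the vesicular glutamate transporter gene Slc17a7 (-0.22, adjusted p = 0.0749) and Nrn1 (-0.38, adjusted p = 0.0400), and 2 of the 7 changes were above 0. Their summed level overlapped between the diets, at 9726, 9638 and 10115 CPM in the control mice and 9172, 9698 and 10238 CPM in the acetate mice.

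Called genes of the postsynaptic scaffold were higher. Of 40 scaffold genes, 5 (12.5%) were higher and 0 lower. At an unadjusted p below 0.05 in edgeR, 6 were higher and 4 lower. Their summed level overlapped between the diets, at 20651, 20821 and 20653 CPM in the control mice and 20605, 21913 and 21972 CPM in the acetate mice. Iqsec2, an ARF exchange factor gene, had 306, 338 and 310.0 CPM in the control mice and 359.5, 402 and 360.4 CPM in the acetate mice (log2 fold change 0.24 ± 0.06 (SE), adjusted p = 0.0321), and Lzts1 and Magi1 rose by 0.60 and 0.20. Dlg4, which encodes PSD-95, was also among them. Higher scaffold genes numbered 0 without control mouse 3 or acetate mouse 2, 2 without acetate mouse 1 and 3 without control mouse 1. The difference in share between the vesicle and scaffold lists was not tested. In synaptic adhesion, Nptx1, a pentraxin gene, had 1057, 1016 and 1143 CPM in the control mice and 790.3, 804 and 933 CPM in the acetate mice (log2 fold change -0.35 ± 0.06 (SE), adjusted p = 0.0146), and Cntnap5a and Adgrb3 rose by 0.55 and 0.28. Of 92 cadherins and protocadherins, 7 were higher and 6 lower, led by Fat4 (0.50, adjusted p = 0.0138) and by Cdh2, Pcdh9 and Pcdh7 (-0.30, -0.34 and -0.30). Higher cadherins numbered 0 without acetate mouse 2, 2 without control mouse 3, 3 without acetate mouse 1 and 4 without control mouse 2, and lower ones 0 without acetate mouse 2 and 3 without control mouse 3 or acetate mouse 1. Of 29 neuropeptides and granins, Nts, Penk (0.43) and Scg3 (0.20) were higher, and the prohormone convertase gene Pcsk2 (-0.28) and Chgb were lower.

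In signalling pathways, 27 of 473 genes were higher and 41 lower, 14.4% in all against 8.84% of all genes. Shares higher and lower were 7.14% and 11.4% in the Ras list and 8.77% and 10.5% in the TGF-beta list. Closer to the 3.99% and 4.85% of all genes were WNT (4.69% and 6.25%), G proteins (3.77% and 7.55%) and cyclases with phosphodiesterases (3.1% and 6.25%). Of 70 Ras, Raf and MAP kinases, 5 were higher and 8 lower, with the stress kinase genes Map3k5 (-0.63, adjusted p = 0.0282) and Map2k4 (-0.22, adjusted p = 0.0469) and Rps6ka3 (-0.32, adjusted p = 0.0313) lower and the exchange factor gene Rasgrf1 higher (0.25, adjusted p = 0.0236). Of 36 genes of ERK feedback, 2 were higher and 4 lower. Spry2, an inhibitor of receptor kinase signalling, had 54.7, 54.4 and 61.6 CPM in the control mice and 44.8, 42.4 and 44.2 CPM in the acetate mice (log2 fold change -0.38 ± 0.07 (SE), adjusted p = 0.0134), and Rasa3 and Dusp3 fell (-0.28 and -0.20). Of 51 genes of protein kinases A and C and CaM kinases, 3 were higher and 4 lower. Camkv and Camk2g rose by 0.29 and 0.28, and Camk1d and Prkcq, which encodes protein kinase C theta, fell (-0.32 and -0.71). Of 57 genes of the TGF-beta and BMP pathway, 5 were higher and 6 lower, with the extracellular proteins Ltbp4 (0.36) and Chrd (0.37) higher and Fstl5 (-0.67) and the receptor gene Acvr1c (-0.53) lower. In axon guidance, with 4 of 72 higher and 6 lower, the receptor genes Robo1 and Nrp1 and the ligand gene Slit2 fell (-0.51, -0.29 and -0.94). The WNT pathway had 3 of 64 members higher, among them Wnt9a (0.73, adjusted p = 0.0577), and 4 lower, Nkd1 (-0.53, adjusted p = 0.0469), Fzd10 (-1.78, adjusted p = 0.0512), Wnt3 (-0.79, adjusted p = 0.0697) and Fzd7. Growth factor genes had 2 of 38 higher, among them Vegfa (0.31, adjusted p = 0.0805), and 3 lower, the receptor genes Fgfr1 (-0.27) and Igf1r and the intracellular Fgf13 (-0.22). Of 53 G proteins and RGS proteins, Rgs9 and Gng7 rose by 0.55 and 0.29, and Rgs8, Gnai3 and 2 others fell. The cyclase gene Adcy2 rose by 0.23, and the phosphodiesterase genes Pde4d and Pde4b fell (-0.26 and -0.23). Without acetate mouse 2, edgeR called 0 members of these lists.

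Few genes of acetate use were called. Of 26 genes of acetate and acetyl-CoA metabolism, 0 were higher and 1 lower, Dlat, which encodes the E2 subunit of pyruvate dehydrogenase (-0.25, adjusted p = 0.0332), while 1 was higher and 7 were lower at an unadjusted p below 0.05 and DESeq2 called 2. Acss2 (chr2:155517948-155585724) had 61.7, 54.1 and 53.6 CPM in the control mice and 53.0, 50.6 and 56.9 CPM in the acetate mice, and the groups overlapped (log2 fold change -0.08 ± 0.07 (SE), adjusted p = 0.573). Of 23 genes of fatty acid synthesis and desaturation, 6 were lower (26.1%) and 0 higher. Scd1 (chr19:44394455-44407879), the stearoyl-CoA desaturase gene, had 214, 211 and 195 CPM in the control mice and 166, 161 and 153 CPM in the acetate mice (log2 fold change -0.37 ± 0.06 (SE), adjusted p = 0.0103). Acsl4, an acyl-CoA synthetase gene, had 137, 122 and 121 CPM in the control mice and 106, 97.9 and 104 CPM in the acetate mice (log2 fold change -0.31 ± 0.06 (SE), adjusted p = 0.0195), and Me1, the malic enzyme gene, had 51.9, 42.1 and 48.5 CPM in the control mice and 40.2, 30.7 and 37.2 CPM in the acetate mice (log2 fold change -0.40 ± 0.10 (SE), adjusted p = 0.0411). The elongase gene Elovl6 fell by 0.28, and Elovl7 and Elovl4 were the other lower members. The count was 1 without acetate mouse 2, 2 without control mouse 1 or control mouse 3 and 3 without acetate mouse 1. Of 25 genes of cholesterol synthesis, 3 were lower and 0 higher, namely the sterol carrier gene Stard4 (-0.40, adjusted p = 0.0379), Sqle, the squalene epoxidase gene (-0.31, adjusted p = 0.0516), and Dhcr7 (-0.31, adjusted p = 0.0638), and their count was 0 without control mouse 1, control mouse 3, acetate mouse 1 or acetate mouse 2. In glycolysis, Pfkfb3 fell by 0.48 (adjusted p = 0.0195), Eno1 fell by 0.23 and Aldoc, an astrocyte enzyme, rose by 0.20. Oxct1, the ketone-body enzyme gene, fell by 0.14 (adjusted p = 0.0858).

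Few genes of energy production and protein synthesis were called. In edgeR's test 0 of 80 subunits of oxidative phosphorylation were called, with 0 higher and 3 lower at an unadjusted p below 0.05, and 0 of 22 genes of the citric acid cycle, with 0 and 2. DESeq2 on all 12 mice called 0 in both lists. Of 82 cytosolic ribosomal proteins, 1 was higher, Rps15 (0.18, adjusted p = 0.0850), and the smallest p among the oxidative phosphorylation genes was that of Atp5g1 (-0.21, adjusted p = 0.150). Of 78 mitochondrial ribosomal proteins 2 were lower, Mrpl51 (-0.32, adjusted p = 0.0433) and Mrps22, and of 46 proteasome subunits 1, Psmd5 (-0.19, adjusted p = 0.0920).

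Called genes of protein folding and turnover were mostly lower. Of 90 chaperones, 17 (18.9%) were lower and 1 higher, with a median of -0.08. The lower members came from the cytosol, where Hsph1, Dnaja1, Hspa8 and Hsp90aa1 act, and from the endoplasmic reticulum, where Pdia4, Pdia3, Hspa5, Hsp90b1, Calr and Canx act. Hsph1, of the HSP110 family, had 417, 389 and 407 CPM in the control mice and 328, 315 and 351 CPM in the acetate mice (log2 fold change -0.29 ± 0.05 (SE), adjusted p = 0.0116). Dnajc6, auxilin of clathrin uncoating, had 415, 386 and 410.5 CPM in the control mice and 308, 289.7 and 344 CPM in the acetate mice (log2 fold change -0.36 ± 0.06 (SE), adjusted p = 0.0116). Pdia4, a disulfide isomerase, had 44.8, 48.7 and 46.5 CPM in the control mice and 33.9, 34.1 and 34.5 CPM in the acetate mice (log2 fold change -0.45 ± 0.08 (SE), adjusted p = 0.0103). In these 3 genes the acetate mice were below the control mice without overlap. Dnaja1, a co-chaperone of HSP70, fell by 0.29. The count of lower chaperones was 0 without acetate mouse 2, 7 without control mouse 3, 9 without acetate mouse 1 and 10 without control mouse 2. Of 72 genes of autophagy and lysosomes, 9 were lower and 1 higher. Beside Retreg1, the lysosomal lipase gene Lipa (-0.42, adjusted p = 0.0268), the V-ATPase accessory gene Atp6ap2 (-0.22, adjusted p = 0.0433) and Atg5 (-0.31, adjusted p = 0.0512) fell. Their count was 1 without control mouse 3 or acetate mouse 2, 2 without acetate mouse 1 and 3 without control mouse 1.

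The cytoskeleton and the matrix gave several called genes. Of 47 tubulin and microtubule genes, 9 (19.1%) were lower and 2 higher. Tppp3, a tubulin polymerization-promoting protein, had 39.1, 28.8 and 34.5 CPM in the control mice and 23.5, 19.2 and 19.3 CPM in the acetate mice (log2 fold change -0.73 ± 0.13 (SE), adjusted p = 0.0149), its paralog Tppp, an oligodendrocyte gene, fell by 0.25, Dpysl2, which encodes CRMP2, fell by 0.31, and the kinase gene Dclk1 rose by 0.25. The count of lower members was 0 without acetate mouse 2, 3 without control mouse 1 or control mouse 3 and 4 without acetate mouse 1. The motor genes Kif5c and Dynlt3 fell (-0.18 and -0.24). Among actin regulators, Dstn, Arhgef17 and Cdc42ep1 fell (-0.25, -0.27 and -0.51). Of 38 collagens, 4 were higher and 1 lower, with a median of 0.28, and of the 38 changes 33 were above 0. Col11a2, Col5a1 and Col19a1 rose by 0.37, 0.99 and 0.36, and Col8a2, of basement membranes, fell from 2.74, 3.94 and 4.20 to 1.36, 0.825 and 1.34 CPM (log2 fold change -1.63 ± 0.35 (SE), adjusted p = 0.0227). Itga8, an integrin gene, rose from 25.3, 24.2 and 18.8 to 33.3, 37.5 and 35.1 CPM (log2 fold change 0.63 ± 0.11 (SE), adjusted p = 0.0117), and the synapse organizer gene Agrn rose by 0.26. Among 31 proteoglycan and perineuronal net genes, 4 were higher and 5 lower. The testican gene Spock3 had 144, 159 and 160.2 CPM in the control mice and 101, 104 and 107 CPM in the acetate mice (log2 fold change -0.57 ± 0.10 (SE), adjusted p = 0.0146), and the chondroitin sulfate proteoglycan genes Cspg5 and Bcan rose by 0.30 and 0.22. Serpinb8, Mmp15 and Mmp14 fell (-1.12, -0.37 and -0.45), and Adamts10 rose by 0.51. Higher collagens numbered 0 without control mouse 3, acetate mouse 1 or acetate mouse 2 and 2 without control mouse 1 or tau control mouse 3.

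The largest median change of the cell type lists was in the ependyma, the ciliated lining of the ventricles. Of 12 ependymal markers, 10 were lower and 0 higher (83.3% lower), with a median log2 fold change of -1.37. Their summed level was 56.9, 52.4 and 58.2 CPM in the control mice and 24.9, 23.1 and 23.7 CPM in the acetate mice, so the groups were far apart at a low level. It was 21.4, 39.3 and 30.5 CPM in the tau control mice and 74.0, 30.5 and 52.8 CPM in the tau acetate mice. Each tau control mouse thus also lay below each control mouse. Foxj1 (chr11:116330704-116335399), the master regulator of motile cilia, had 16.3, 16.5 and 15.3 CPM in the control mice and 7.88, 6.55 and 7.35 CPM in the acetate mice (log2 fold change -1.15 ± 0.25 (SE), adjusted p = 0.0355). Dynlrb2, a dynein light chain gene, had 1.63, 2.16 and 1.83 CPM in the control mice and 0.646, 0.361 and 0.511 CPM in the acetate mice (log2 fold change -1.89 ± 0.41 (SE), adjusted p = 0.0236), and Tmem212 had 3.03, 3.48 and 4.40 CPM in the control mice and 1.23, 1.08 and 1.34 CPM in the acetate mice (log2 fold change -1.58 ± 0.41 (SE), adjusted p = 0.0457). Of 64 motile cilia genes, 16 were lower and 0 higher, with a median of -0.54. Tekt1, a tektin of ciliary microtubules, had 3.67, 2.63 and 3.32 CPM in the control mice and 1.49, 1.19 and 1.28 CPM in the acetate mice (log2 fold change -1.29 ± 0.32 (SE), adjusted p = 0.0355), and Cfap43 had 4.83, 3.71 and 3.52 CPM in the control mice and 2.00, 1.65 and 1.79 CPM in the acetate mice (log2 fold change -1.16 ± 0.26 (SE), adjusted p = 0.0253). Tekt4 had 12, 18 and 13 reads in the control mice and 3, 3 and 2 in the acetate mice (adjusted p = 0.0203). The median log2 fold change of the ependymal list was -1.35 without acetate mouse 2 and lay between -1.45 and -1.28 with any 1 mouse left out. The count of lower ependymal markers was 0 without acetate mouse 2, 1 without control mouse 3, 3 without acetate mouse 1 and 5 without control mouse 1. For the cilia list it was 0 without acetate mouse 2, 2 without control mouse 3, 5 without acetate mouse 1, 6 without control mouse 1, 9 without acetate mouse 3 and 10 without control mouse 2.

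Motile cilia genes are known targets of FOXJ1 and RFX factors, and the RFX motif GTTGCCA was searched on both strands of the same windows. It was held by 592 of 14713 windows (4.02%), by 13 of 66 windows (19.7%) of the cilia and ependymal lists, and by 2 of 20 windows of their lower members. Over all called genes the share was 6.22% among higher and 4.67% among lower genes. The 2 windows are shown with the motif in capitals, 14 bases before the start in Hydin and 15 bases before it in Tekt1. No match in a window says only that these letters are not in it. Rfx1, a factor that binds this motif, rose in acetate mice, from 22.9, 23.9 and 22.1 to 28.5, 29.2 and 27.2 CPM (log2 fold change 0.30 ± 0.09 (SE), adjusted p = 0.0605). It was the 1 higher of 23 tested RFX, NFI, MEF2, SRF and TEAD factors, with 1 lower. A relation of Rfx1 to the cilia genes was not tested.
Hydin (chr8:110266727-110267026, plus strand): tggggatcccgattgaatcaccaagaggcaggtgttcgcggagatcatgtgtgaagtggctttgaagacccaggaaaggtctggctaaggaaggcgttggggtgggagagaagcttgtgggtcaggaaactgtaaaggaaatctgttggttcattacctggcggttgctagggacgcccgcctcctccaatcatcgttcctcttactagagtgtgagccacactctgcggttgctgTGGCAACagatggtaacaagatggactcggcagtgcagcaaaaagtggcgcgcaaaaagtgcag
Tekt1 (chr11:72361833-72362132, minus strand): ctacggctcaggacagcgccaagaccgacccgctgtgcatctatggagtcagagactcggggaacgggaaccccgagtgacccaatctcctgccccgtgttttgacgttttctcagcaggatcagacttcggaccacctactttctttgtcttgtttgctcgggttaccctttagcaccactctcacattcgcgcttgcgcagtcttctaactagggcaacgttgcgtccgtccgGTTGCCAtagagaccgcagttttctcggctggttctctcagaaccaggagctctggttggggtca

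Markers of other cells at the border of the hippocampus were lower as well. Choroid plexus markers, 2 of 13 lower and 0 higher, summed to 426, 366 and 401 CPM in control and 286, 273 and 271 CPM in acetate mice. They summed to 478, 295 and 427 CPM in tau control and 387, 362 and 915 CPM in tau acetate mice. Folr1, the folate receptor gene of choroid plexus, fell by 1.73 (adjusted p = 0.0746), and Otx2 fell by 1.81 (adjusted p = 0.0939). Of 21 markers of myelinating oligodendrocytes, 7 were lower and 0 higher, all 21 changes were below 0, and the median was -0.52. Their sum was 10808, 8904 and 8344 CPM in control and 7255, 5991 and 5276 CPM in acetate mice. It was 5749, 5580 and 6775 CPM in tau control and 10251, 9058 and 6361 CPM in tau acetate mice. Each tau control mouse thus also lay below each control mouse. Fa2h, a hydroxylase of myelin lipids, had 53.8, 47.0 and 46.3 CPM in the control mice and 31.5, 31.5 and 29.5 CPM in the acetate mice (log2 fold change -0.67 ± 0.15 (SE), adjusted p = 0.0379). Ugt8a, the galactosyltransferase of the same lipids, had 85.5, 71.9 and 70.6 CPM in the control mice and 49.1, 40.9 and 37.9 CPM in the acetate mice (log2 fold change -0.84 ± 0.24 (SE), adjusted p = 0.0895). The oligodendrocyte connexin gene Gjb1 fell by 0.72. Oligodendrocyte precursor markers were called in both directions, Gpr17 lower (-0.31, adjusted p = 0.0483) and Cspg4 higher (0.29, adjusted p = 0.0767). The median log2 fold change of the myelin list was -0.51 without acetate mouse 2 and lay between -0.65 and -0.38 with any 1 mouse left out. The count of lower myelin markers was 0 without control mouse 1 or acetate mouse 2, 1 without control mouse 3, 2 without control mouse 2, acetate mouse 1, acetate mouse 3 or tau control mouse 1, 3 without tau acetate mouse 2, 4 without tau control mouse 2 and 14 without tau acetate mouse 3. Thalamus and habenula markers summed to 109, 327 and 166 CPM in control and 111, 102 and 109 CPM in acetate mice. The thalamic kinase gene Prkcd had 51.9, 130.0 and 77.4 CPM in the control mice and 22.7, 19.6 and 34.6 CPM in the acetate mice and did not pass (log2 fold change -1.75 ± 0.52 (SE), adjusted p = 0.104), nor did any other of the 9 tested members in edgeR, with 0 higher and 2 lower at an unadjusted p below 0.05 and 2 called lower by DESeq2. Control mouse 2 was the highest in this list, and control mouse 1 lay among the acetate mice.

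Within the hippocampus, CA1 markers were higher (3 of 6, led by Pou3f1, Fibcd1 and Mpped1) and CA3 markers lower (4 of 6, led by Elavl2, Iyd and Spock1). The CA1 count was 0 without control mouse 3, acetate mouse 1 or acetate mouse 2 and 1 without control mouse 2, and the CA3 count 0 without control mouse 3 or acetate mouse 2, 1 without acetate mouse 1 and 2 without control mouse 1. CA2 markers had 0 of 7 called in edgeR, all 7 changes below 0, 2 at an unadjusted p below 0.05 and 1 called by DESeq2. Of 10 dentate granule cell markers, edgeR and DESeq2 called 0, and 2 higher and 0 lower had an unadjusted p below 0.05. Of 25 interneuron markers, 2 were called higher, Npas1 among them, and Kcnc2 lower, and 17 changes were above 0 and 8 below. Their summed level was 1718, 1645 and 1680 CPM in the control mice and 1842, 1841 and 1720 CPM in the acetate mice, so that the diets did not overlap, although the highest control and the lowest acetate mouse were close. Of 4 markers of Cajal-Retzius cells, Reln, which encodes the guidance protein reelin (63.5, 60.0 and 53.0 against 94.6, 83.4 and 71.8 CPM; log2 fold change 0.50 ± 0.12 (SE), adjusted p = 0.0447), and Ndnf (0.49, adjusted p = 0.0512), were higher, and both are also made by interneurons of the neurogliaform type. The other 2, Nhlh2 (log2 fold change -1.04) and Trp73 (-0.77), had values below 0 and did not pass, and the median of the 4 was -0.14. Of 13 neocortical markers, Cplx3 (0.99, adjusted p = 0.0455) and Ccn2 (0.87, adjusted p = 0.0746) were higher, and of 11 striatal markers Rgs9 (0.55, adjusted p = 0.0183) and Penk were higher.

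Called astrocyte markers were mostly higher. Of 19 astrocyte markers, 5 (26.3%) were higher and 1, Aqp4, lower, and their sum overlapped between the diets at 6973, 7215 and 6887 CPM and 7509.9, 7504 and 7012 CPM. Slc1a3, the glutamate transporter GLAST, had 499.8, 480.5 and 495 CPM in the control mice and 609, 586 and 529 CPM in the acetate mice (log2 fold change 0.23 ± 0.06 (SE), adjusted p = 0.0355). Gpc5, Slc7a10, a D-serine and glycine transporter gene, and Ppp1r3c, a glycogen-targeting subunit, rose by 0.26, 0.28 and 0.24. Higher astrocyte markers numbered 0 without control mouse 3, acetate mouse 1 or acetate mouse 2 and 1 without control mouse 1. Among vascular cells, 3 of 14 pericyte and smooth muscle markers rose, Pdgfrb (0.34, adjusted p = 0.0706), Myl9 (0.55, adjusted p = 0.0710) and Notch3, as did the endothelial genes Abcb1a (0.30, adjusted p = 0.0593) and Itm2a (0.24, adjusted p = 0.0962), and the pericyte count was 0 without control mouse 3 or acetate mouse 2 and 1 without control mouse 2, acetate mouse 1 or acetate mouse 3. Of 15 markers of meningeal fibroblasts and 8 of progenitors and immature neurons, edgeR and DESeq2 called 0, and 0 and 1 had an unadjusted p below 0.05.

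Of 72 genes in the immune lists, 0 were higher and 4 lower, 5.56% in all against 8.84% of all genes. Of 20 microglial markers, edgeR and DESeq2 called 0, with 1 higher and 0 lower at an unadjusted p below 0.05, and their sums overlapped, at 724 to 748 CPM in control and 709.8 to 752 CPM in acetate mice. Of 28 interferon response genes both tools called 0, with 0 higher and 0 lower at an unadjusted p below 0.05. C3 and the MHC class II gene H2-Ab1 (-1.95, adjusted p = 0.0506) were the 2 lower members of 21 genes of MHC and complement. Il6st, the shared receptor subunit gp130 of the interleukin 6 family, had 84.9, 94.4 and 85.1 CPM in the control mice and 71.4, 70.2 and 68.5 CPM in the acetate mice (log2 fold change -0.33 ± 0.06 (SE), adjusted p = 0.0103).

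**Figure D4:**
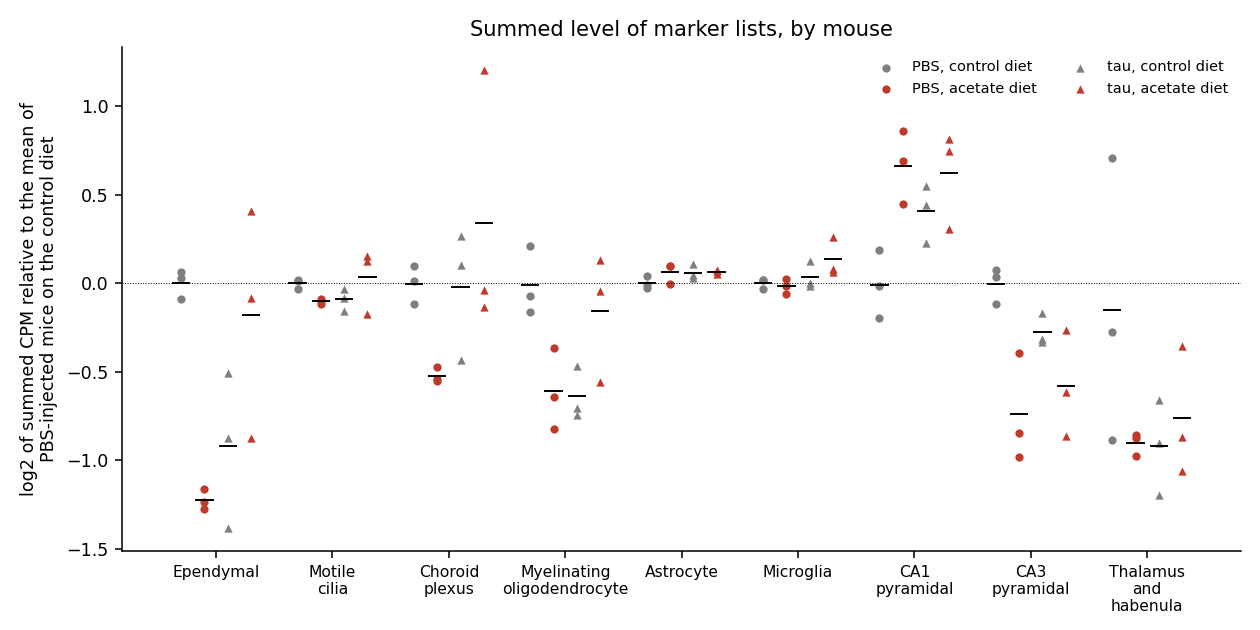
Log2 of the summed CPM of the tested members of 9 lists relative to the mean of PBS-injected mice on the control diet, 1 symbol per mouse (circles PBS-injected, triangles tau-injected, grey control diet, red acetate diet), with group means of the log2 values as bars. Ependymal, choroid plexus, myelin and CA3 sums of acetate mice (red circles) lie below those of control mice (grey circles), CA1 sums above, and astrocyte and microglial sums overlap. Ependymal and myelin sums of tau control mice (grey triangles) also lie below those of control mice, and their choroid plexus sums overlap.

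The same diet contrast in tau-injected mice called 6 genes higher (0.0407%) and 3 lower (0.0204%), 9 in all (0.0611%). DESeq2 called 176 there, so that the size of the tau-injected count depends on the tool. Of the 588 genes higher in PBS-injected acetate mice, 362 also had a change above 0 in tau-injected mice, with a median there of 0.03, and of the 715 lower genes 487 were below 0, with a median of -0.07. None of the 588 higher genes was called in tau-injected mice, and 4 of the 715 lower genes were, 2 of them in the same direction. An interaction term compared both diet effects and called 230 genes (1.56%), 164 (1.11%) with a more positive and 66 (0.448%) with a more negative response to acetate after tau. Of the genes called in PBS-injected mice, 57 higher and 110 lower ones passed it. Scd1 had the smallest p (0.71 ± 0.09 (SE), adjusted p = 0.00240). It was 161, 149.6 and 168 CPM in the tau control mice and 219.5, 199 and 188 CPM in the tau acetate mice, a change of 0.34 against -0.37 in PBS-injected mice. Tppp3 (1.28 ± 0.18 (SE), adjusted p = 0.0206), Rarres2, the chemerin gene (1.70 ± 0.27 (SE), adjusted p = 0.0206), Prkcq (1.28 ± 0.21 (SE), adjusted p = 0.0206) and Dbndd2 (0.56 ± 0.09 (SE), adjusted p = 0.0206), whose exons lie in a region shared with a same-strand transcript, followed with the same direction. In PBS-injected mice Rarres2 fell from 9.20, 6.18 and 9.41 to 4.20, 4.33 and 4.66 CPM and Dbndd2 from 185, 169.7 and 169 to 154, 146 and 136 CPM. Ependymal genes passed the interaction in 6 of 12 cases and motile cilia genes in 7 of 64, with median changes in tau-injected mice of 0.80 and 0.41. Clock genes passed it in 3 of 22, in the other direction, with Npas2 (-0.85 ± 0.16 (SE), adjusted p = 0.0435), Bhlhe40 (-0.54 ± 0.11 (SE), adjusted p = 0.0511) and Per1 (-0.44 ± 0.11 (SE), adjusted p = 0.0917). The interaction count was 8 without acetate mouse 2, 22 without tau acetate mouse 1 and 47 without tau control mouse 2, 102 and 144 without control mice 2 and 1, 113 without tau control mouse 1, 127 without acetate mouse 1 and 442 without tau acetate mouse 3. It was 438 in DESeq2 and 4 with the subfield score as a covariate.

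The genes higher and lower with acetate had different median base composition. The median GC content of the longest transcript was 52.4% for the higher, 47.0% for the lower and 49.8% for all tested genes (GENCODE vM21, 99.1% of tested genes matched). Over quintiles of GC content, the share called higher went from 2.53% in the lowest to 6.16% in the highest quintile, and the share called lower from 7.49% to 2.43%. Both shares were larger for genes with long exonic sequence, from 2.43% to 5.13% for higher and from 3.35% to 5.95% for lower genes. Long noncoding genes made up 27 of the higher genes with an annotation (4.62%), 4 of the lower ones (0.561%) and 3.74% of all. On single autosomes and the X chromosome, 6.24% to 11.4% of genes were called. The part of library preparation in these trends was not tested.

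**Figure D5:**
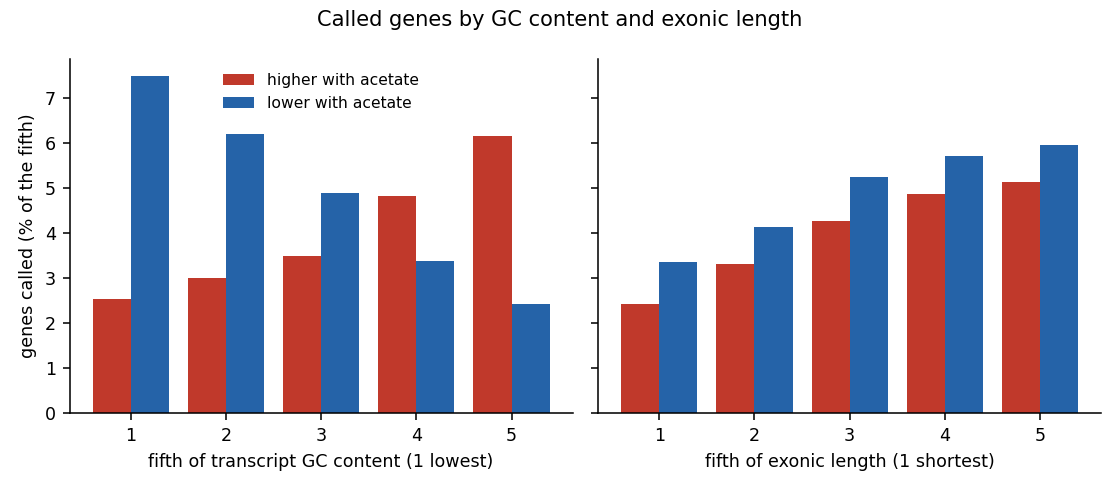
Percent of genes called higher (red) and lower (blue) with acetate in quintiles of transcript GC content (left) and of exonic length (right), from lowest to highest. The higher share grows and the lower share shrinks with GC content, and both grow with length.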

How the data were processed

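Total RNA of the injected dorsal hippocampus was sequenced from 12 mice, 1 library per mouse, prepared with the NEB Ultra II Directional kit. According to the submitters' processing notes and the methods, the authors aligned reads with STAR 2.5.2a to GRCm38, used SAMtools 1.1, and deposited raw whole-number counts per gene from HTSeq 0.9.1, counted on exons of the reverse strand. They tested differences with DESeq2, and the annotation release is not given in the sources used here. The other experiments of the study were not analysed here.

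From the deposited counts, genes passing edgeR's filterByExpr (minimum count 10, minimum total 15) were kept, 14742 of 24985, of which 5357 had no count. Libraries were scaled by TMM. A quasi-likelihood model with robust dispersion (edgeR 4.0.16, limma 3.58.1, R 4.3.3) had 1 mean per group over all 12 mice and 8 residual degrees of freedom. Contrasts were acetate minus control diet in PBS-injected mice, the same in tau-injected mice and their difference. The standard error is the fold change divided by the square root of F. Genes with a two-sided p below 0.1 after Benjamini-Hochberg adjustment over all genes tested were called. The biological coefficient of variation was 7.25%. Totals of 12983233 to 19205843 counts in the PBS-injected mice limit the precision of low genes, and the interval of a ratio of reads is an exact binomial one and covers counting error only. Nothing in the labels names litters or cages, so p-values measure the spread between these mice. The fitting code was checked on simulated counts in which 200 genes were changed.

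Alternatives were DESeq2 size factors, no filter, DESeq2 1.42.0, fits of the 6 PBS-injected mice, a stricter threshold of 0.05, a block for replicate number, a CA1 minus CA3 marker score as covariate, and each mouse left out. The comparison, the lists and the tests were chosen with earlier results of these data known. Genes named with values were the 8 higher and 8 lower of smallest p, the 5 largest changes in each direction among called genes with a mean of at least 1 CPM in the PBS-injected mice, up to 4 called members of smallest p per list (or the member of smallest p), Acss2 and Npas4, and the 5 called genes of smallest interaction p. Other called members given by name alone were chosen after their values were seen. Lists were counted and received no test of their own, and genes can belong to several lists. GC content is that of the longest transcript and length that of merged exons in GENCODE vM21. Promoter windows came from RefSeq on GRCm38.p6. Some genes that met the rule for named genes are not reported here.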

Additional observations from a re-analysis of the deposited data

Results flagged for a closer look

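By the interaction term of edgeR, 230 genes responded to the diet differently after tau than after PBS, and the named genes among them are given here with the log2 difference, tau-injected minus PBS-injected. A value above 0 means that acetate moved the gene further upward, or less downward, in tau-injected mice. These genes were named for their change in PBS-injected mice, so that 1 arm of each difference was large by choice.

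Ependymal, cilia and choroid plexus genes with a value above 0 were Foxj1 (2.00), Dynlrb2 (2.88), Tmem212 (2.70), Tekt1 (2.04), Tekt4 (3.21), Cfap43 (1.94) and Folr1 (2.92). Myelin and oligodendrocyte genes with a value above 0 were Fa2h (1.21) and Gjb1 (1.35). Immune genes with a value above 0 were C3 (3.60), Cxcl5 (3.24), Il6st (0.39) and Rarres2 (1.70). Genes of lipid synthesis, signalling and turnover with a value above 0 were Scd1 (0.71), Prkcq (1.28), Spry2 (0.47), Rasa3 (0.39), Nkd1 (0.90), Retreg1 (0.53) and Atf6 (0.36). Genes of the cytoskeleton, matrix and vesicles with a value above 0 were Tppp3 (1.28), Cdc42ep1 (0.80), Col8a2 (2.36), Mmp14 (0.65), Spock3 (0.55), Sypl (0.37) and Dbndd2 (0.56).

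Clock genes with a value below 0 were Npas2 (-0.85), Bhlhe40 (-0.54) and Per1 (-0.44). Channel, receptor and transporter genes with a value below 0 were Kcnh3 (-0.40), Gria2 (-0.26), Grm5 (-0.30), Gabrg1 (-0.61) and Slc26a8 (-1.13). Other genes with a value below 0 were Pak6 (-0.56), Zkscan16 (-0.48), Ltk (-0.80), Gpc5 (-0.42), Dtx4 (-0.49), Ccdc88c (-0.48), Icam5 (-0.27), Car11 (-0.31), Dclk1 (-0.30), Itga8 (-0.60) and Ntn5 (-2.57). Fitted values that rest on few reads in acetate mice include those of Tekt4, Cxcl5, Folr1 and Dynlrb2. Folr1 had 0.517, 0.516 and 0.383 CPM in the acetate mice and Dynlrb2 0.646, 0.361 and 0.511 CPM. In tau acetate mice 1, 2 and 3, Folr1 had 1.83, 0.726 and 4.24 CPM. None of the differences was weighed against a technical source.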

How the results depend on the processing

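Counts of genes higher and lower with acetate in PBS-injected mice, 588 and 715, were 573 and 740 with DESeq2 size factors, 572 and 541 without a filter, 565 and 792 in DESeq2 on 12 mice, 522 and 707 in DESeq2 and 718 and 819 in edgeR on the 6 PBS-injected mice. At an adjusted p below 0.05 they were 225 and 316, and with the subfield score as a covariate 0 and 0. With 1 mouse left out they ranged from 11 to 688 and from 4 to 754, and all 1303 genes kept their sign in each of the 12 fits. DESeq2 on 12 mice shared 1181 of its 1357 called genes with the main 1303. The interaction count of 230 was 438 in DESeq2, 4 with the covariate and 43 at an adjusted p below 0.05, and ranged from 8 to 442 with 1 mouse left out. The count of 9 in tau-injected mice was 56 without a filter, 176 in DESeq2 and 3 at an adjusted p below 0.05, and ranged from 1 to 66 with 1 mouse left out. The cause of these moves was not tested, other than that fewer mice or a stricter threshold were used.

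Whether replicate numbers pair the mice was not tested, as differently numbered mice were not compared. Deviations of same-numbered control and acetate mice correlated at 0.0742, 0.0857 and 0.144. With a replicate block the counts were 532 higher and 692 lower, 10 in tau-injected mice and 349 for the interaction.

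Under the covariate 1165 of the 1303 genes kept their sign, and 18 named genes turned, at log2 fold changes of Adora1 0.0099, Aldoc -0.013, Atp2b1 -0.027, Cacna1a 0.058, Dhcr7 0.039, Fgf13 0.0045, Fgfr1 0.067, Fibcd1 -0.034, Gpr101 -0.45, Grik4 0.049, Mpped1 -0.14, Ndnf -0.031, Otos 0.064, Rxfp1 -0.17, Scg3 -0.065, Slc17a7 0.073, Stim2 0.0017 and Trpc4 -0.023. None of them passed there. With 3 mice per group, changes not well above the stated standard errors could be missed.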
